A study of Mus musculus with 10 samples.

Results

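Proteasome genes were read from RNA-seq of livers of male db/db mice, 10 weeks old, that lack a working leptin receptor and develop obesity, diabetes and fatty liver. The genes were all those whose symbol starts with Psm, a letter from a to g and a digit, with 1 entry per Ensembl identifier, and 49 of the 15126 genes analysed matched. Of the 10 livers, 5 came from mice given adeno-associated virus of serotype 8 (AAV8) encoding eGFP (AAV8-Control) and 5 from mice given AAV8 encoding the gene under test (here AAV8-Test). Both groups carried the db/db genotype and a viral vector injected through the tail vein 5 weeks earlier, and the promoter of the vector is not given in the sources used here. The labels name the tissue as liver but also name primary hepatocytes and an adenovirus in culture, and the description of whole livers was followed. Nothing in the sources pools animals, and each library was taken as 1 mouse.

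The proteasome degrades proteins tagged with ubiquitin. Its 20S core is a barrel of outer rings of alpha subunits (Psma genes) and inner rings of beta subunits (Psmb genes), of which Psmb5, Psmb6 and Psmb7 carry the cutting sites. The 19S cap unfolds substrates with its ring of ATPases (Psmc genes) and holds and trims ubiquitin with its other subunits (Psmd genes). Under interferon gamma, cells build immunoproteasomes, in which Psmb8, Psmb9 and Psmb10 take the places of Psmb5, Psmb6 and Psmb7, and the PA28 activator of Psme1 and Psme2 caps the core. Immunoproteasomes cut peptides well suited to presentation on MHC class I, and in liver they are found in immune cells and in hepatocytes exposed to interferon.

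The 49 genes were the 7 alpha subunits, the 3 constitutive catalytic and 4 non-catalytic beta subunits, 6 ATPases and 11 other subunits of the 19S cap, 3 chaperones of 19S assembly, 4 of 20S assembly, 3 other activators or inhibitors, 3 immune catalytic subunits and 2 PA28 subunits, with 3 more below. Of these, 46 had a mean of at least 1 CPM, the reads of a gene scaled to the library's total on genes, over the 10 livers and were tested. The 3 under that level were Psma8, a testis-restricted alpha subunit, at 0.805 CPM, Psmc3ip at 0.366 CPM and Psme2b at 0.250 CPM. Psmc3ip and Psme2b match by name only, as the former is a recombination factor and the latter a copy of Psme2.

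Promoter windows of 4 genes are shown because they hold motifs of the factors known for the constitutive and the immune subunits. Nfe2l1 (Nrf1) drives constitutive subunit genes through antioxidant response elements, and interferon acts through gamma-activated sites and interferon-stimulated response elements. The windows, from RefSeq on GRCm38.p6, run from 250 bases before to 50 after the annotated start and are written 5′ to 3′ on the gene's strand, with the motif match in capitals. Windows were found for 41 of the 49 genes. The RefSeq starts of Psmb8 and Psme1 lie inside the GENCODE gene spans given further on, which reach further upstream, so these 2 windows are within the annotated genes.
Psmb5, chr14:54617946-54618245, reverse strand, antioxidant response element: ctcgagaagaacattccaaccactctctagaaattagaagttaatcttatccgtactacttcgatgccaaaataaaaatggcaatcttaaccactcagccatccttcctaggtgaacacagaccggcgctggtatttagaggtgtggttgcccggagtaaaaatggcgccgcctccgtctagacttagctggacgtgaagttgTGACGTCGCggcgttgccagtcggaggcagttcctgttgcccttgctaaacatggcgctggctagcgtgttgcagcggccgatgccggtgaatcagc
Psmb6, chr11:70525107-70525406, forward strand, antioxidant response element: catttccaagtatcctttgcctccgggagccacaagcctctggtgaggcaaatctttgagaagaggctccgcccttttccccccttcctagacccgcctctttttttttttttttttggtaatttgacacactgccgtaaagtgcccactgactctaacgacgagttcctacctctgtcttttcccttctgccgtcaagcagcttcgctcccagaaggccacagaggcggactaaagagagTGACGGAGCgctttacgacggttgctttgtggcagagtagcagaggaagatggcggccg
Psmb8, chr17:34197945-34198244, forward strand, gamma-activated site: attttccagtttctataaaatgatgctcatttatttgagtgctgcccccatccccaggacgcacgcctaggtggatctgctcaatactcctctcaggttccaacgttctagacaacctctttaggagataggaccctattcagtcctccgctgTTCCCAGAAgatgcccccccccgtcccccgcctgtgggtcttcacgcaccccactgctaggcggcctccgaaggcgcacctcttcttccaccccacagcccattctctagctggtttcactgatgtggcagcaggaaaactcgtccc
Psme1, chr14:55578244-55578543, forward strand, interferon-stimulated response element read on the opposite strand: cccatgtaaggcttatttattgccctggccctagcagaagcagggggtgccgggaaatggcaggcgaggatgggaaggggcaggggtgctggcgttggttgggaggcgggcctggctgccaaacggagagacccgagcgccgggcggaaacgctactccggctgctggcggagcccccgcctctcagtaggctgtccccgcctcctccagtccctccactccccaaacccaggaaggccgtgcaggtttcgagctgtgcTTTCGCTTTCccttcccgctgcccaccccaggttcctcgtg

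The antioxidant response element was searched as TGACNNNGC on both strands. Of 25 20S and 19S genes with a window, 4 held it in any of their windows (Psmb5, Psmb6, Psmc6 and Psmd12). It was in 12.4% of 32851 promoter windows, and these shares count windows, while a gene with more than 1 window was counted once. None of the 5 immune genes held it. The gamma-activated site, TTCNNNGAA, was in the window of Psmb8 among the 5 immune genes, in 1 of the 25 core and cap genes (Psmd2) and in 8.30% of all windows. The interferon-stimulated response element, GAAA, any 2 bases, then GAAA, was in the window of Psme1, in 2 of the 25 (Psmb3 and Psmd4) and in 3.44% of all windows. CCAAT was in a window of 10 of the 25 genes and in that of Psmb9, against 37.4% of all windows. A match describes the letters of the window and not a bound site.

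In AAV8-Test livers the proteasome genes sat slightly lower in the mean, by a few percent, and no gene passed the test. Of the 46 genes tested, 40 had a log2 fold change below 0, against 44.1% of the 11027 genes tested. Their median log2 fold change was -0.09, on log2(CPM + 1), against 0.02 for all genes tested, and single genes ran from -0.22 for Psmg4 to 0.10 for Psme4. By limma with Benjamini-Hochberg adjustment, 0 of the 46 passed an adjusted p of 0.05, and the lowest adjusted p was 0.617, while 2 of all genes (0.0181%) passed. At an unadjusted p under 0.05, 4 of the 46 were lower and 0 were higher, against 2.97% and 4.99% of all genes tested. With TMM scaling (trimmed mean of M values), 43 were below 0, against 49.6% of all genes, and 4 were lower at an unadjusted p under 0.05, against 4.11%. edgeR with TMM and DESeq2 gave the same 2 counts, against 49.6% and 49.7% below 0 and 3.95% lower at an unadjusted p under 0.05 by each. The count of 4 fell to 1 with the replicate number as a block, to 2 without AAV8-Control replicate 3, AAV8-Control replicate 4 or AAV8-Test replicate 4, and to 1 without AAV8-Control replicate 5 or AAV8-Test replicate 5. The genes of the complex covary between livers, as given below, so 40 of 46 does not count 40 independent genes.

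**Figure D1:**
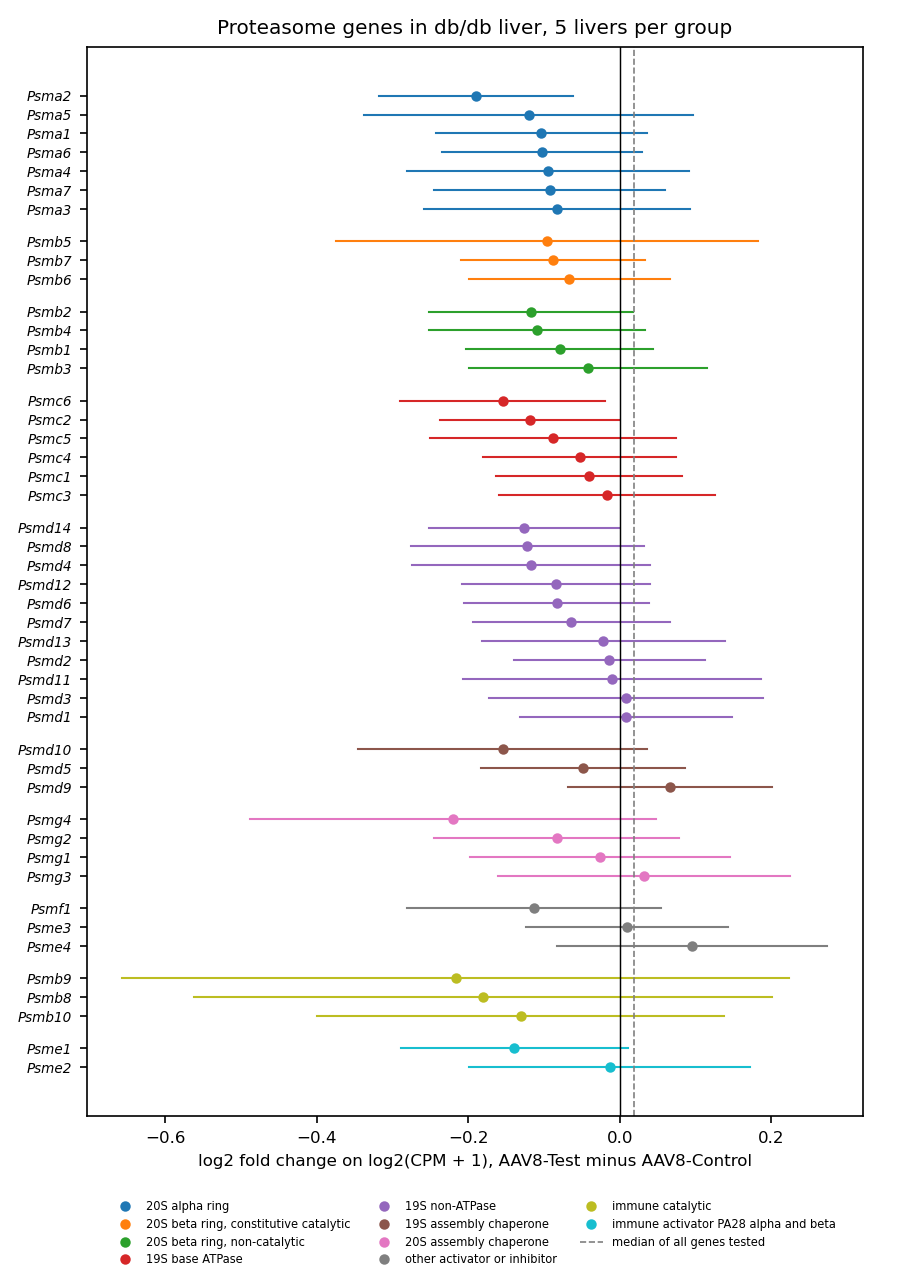
Log2 fold changes of the 46 proteasome genes tested (x axis, AAV8-Test minus AAV8-Control on log2(CPM + 1)), grouped and coloured by sub-complex, with 95% confidence intervals from limma as bars and the median of all genes tested as a dashed line. Most points lie left of 0 within about 0.2, and the bars of Psmb8 and Psmb9 are the widest.

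On CPM without TMM scaling, Psma2, the alpha 2 subunit of the 20S core, was the only one of the 46 whose groups did not overlap, against 0.435% of all genes tested in this direction and 0.472% in the other. In GRCm38 its gene spans 14613240 to 14674236 on chromosome 13, forward strand. Its AAV8-Control livers were at 49.2, 51.3, 52.4, 51.6 and 52.0 CPM and its AAV8-Test livers at 45.8, 48.7, 45.0, 43.7 and 41.3 CPM. The highest AAV8-Test liver was thus just under the lowest AAV8-Control liver. This gap is on CPM without TMM scaling, whose factors were 1.04 for AAV8-Control replicate 1 and 0.948 for AAV8-Test replicate 1. With division by the factors, AAV8-Control replicate 1 falls below AAV8-Test replicates 1 and 2, and the groups overlap. The log2 fold change was -0.19 (standard error 0.059, unadjusted p = 0.00700 and adjusted p = 0.617 by limma), and the exact permutation test, also without TMM scaling, gave p = 0.00794, the smallest that 5 against 5 livers allow.

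The remaining 13 constitutive 20S genes were also lower in the mean and overlapped between groups. The median log2 fold change of the 14 was -0.10, from -0.19 for Psma2 to -0.04 for Psmb3, a non-catalytic beta subunit. Among the alpha subunits Psma3 had the log2 fold change nearest 0 (-0.08), with means of 17.6 ± 0.348 CPM and 16.6 ± 2.06 CPM (SD, n = 5 each, AAV8-Control first). Among the non-catalytic beta subunits Psmb2 had the lowest log2 fold change (-0.12), at 85.5 ± 4.65 CPM and 78.7 ± 4.49 CPM.

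The catalytic subunits of the constitutive core overlapped between groups, and none had an unadjusted limma p under 0.05. Psmb5, with the chymotrypsin-like site, was at 22.4, 23.7, 27.6, 18.7 and 20.6 CPM in AAV8-Control and at 18.0, 23.1, 26.6, 21.5 and 16.7 CPM in AAV8-Test (log2 fold change -0.10, standard error 0.13). Both groups spanned nearly the same range, and the log2 fold change ran from -0.18 without AAV8-Test replicate 3 to -0.019 without AAV8-Test replicate 5. Psmb6, with the caspase-like site, was at 115 ± 5.62 CPM and 110 ± 6.36 CPM (SD, n = 5 each, log2 fold change -0.07, standard error 0.061). Psmb7, with the trypsin-like site, measured 135, 130, 139, 131 and 129 CPM in AAV8-Control and 124, 130, 129, 125 and 115 CPM in AAV8-Test, with AAV8-Test replicates 2 and 3 inside the control range. Its means were 133 ± 4.23 CPM and 125 ± 5.98 CPM (log2 fold change -0.09, standard error 0.056, unadjusted limma p = 0.142, exact permutation p = 0.0476).

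Of the 17 subunits of the 19S cap, 15 were lower in the mean, with a median log2 fold change of -0.06. Psmc6, an ATPase of the base, measured 69.6, 61.0, 66.4, 69.6 and 70.9 CPM in AAV8-Control livers and 61.0, 65.1, 57.3, 60.9 and 58.2 CPM in AAV8-Test livers. AAV8-Control replicate 2 lay among the AAV8-Test livers, and the means of 67.5 ± 4.01 CPM and 60.5 ± 3.04 CPM (SD, n = 5 each) gave a log2 fold change of -0.15 (unadjusted limma p = 0.0287, exact permutation p = 0.0238). Psmc2, another ATPase, ran from 77.3 to 84.3 CPM in AAV8-Control and from 70.9 to 78.0 CPM in AAV8-Test, with only AAV8-Test replicate 2 inside the control range. Its means were 81.3 ± 3.09 CPM and 74.8 ± 2.56 CPM (unadjusted limma p = 0.0493, exact permutation p = 0.0159). Psmd14, the deubiquitinase of the cap, ran from 47.7 to 52.9 CPM and from 43.3 to 47.9 CPM, with means of 50.7 ± 2.24 CPM and 46.4 ± 1.88 CPM (unadjusted limma p = 0.0487, exact permutation p = 0.0238). The adjusted p of each of these was 0.617, the groups overlapped, and the unadjusted calls belong to the 4 that depended on single livers. At the other end Psmd1, a scaffold of the cap, had a log2 fold change of 0.01, which was below 0 with TMM scaling, and Psmc3, an ATPase, had one of -0.02. Whether the 20S and 19S genes differed from each other in their shift was not tested.

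Assembly factors and regulators went both ways. Psmg4, a chaperone of 20S assembly, was at 8.62 ± 0.632 CPM and 7.37 ± 1.67 CPM (SD, n = 5 each), a log2 fold change of -0.22 with a standard error of 0.12. Psmg3, its partner, had a log2 fold change of 0.03. Of the 19S chaperones, Psmd10 (gankyrin) had one of -0.15 and Psmd9 one of 0.07. Psme4, the PA200 activator, had one of 0.10 and Psmf1, the PI31 regulator, one of -0.11, and none of these 6 had an unadjusted p under 0.05.

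The lower level of core subunits was not even across AAV8-Test livers. The mean log2 level of the 14 constitutive 20S genes, set against the AAV8-Control mean, was -0.02, 0.04, 0.05, -0.05 and -0.02 in AAV8-Control replicates 1 to 5 and -0.11, -0.02, -0.01, -0.15 and -0.21 in AAV8-Test replicates 1 to 5. AAV8-Test replicates 1, 4 and 5 were lowest, and replicates 2 and 3 lay within the control range. This order, and the counts and correlations that follow, are on CPM without TMM scaling. The TMM factor was lowest for AAV8-Test replicate 1 (0.948) and highest for AAV8-Test replicate 3 (1.07). With division by the factors, replicate 1 lies inside the control range and replicate 3 below it, and replicates 4 and 5 stay below it. Of the 31 core and cap subunits, 29, 21, 17, 26 and 28 were below the AAV8-Control mean in AAV8-Test replicates 1 to 5, and 6 to 24 in AAV8-Control livers. With each group centred on its mean, the mean pairwise correlation across the 10 livers was 0.400 among 20S genes, 0.279 among 19S genes and 0.272 between them, against 0.0795 among all genes tested. These correlations share libraries and are given as a description.

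**Figure D2:**
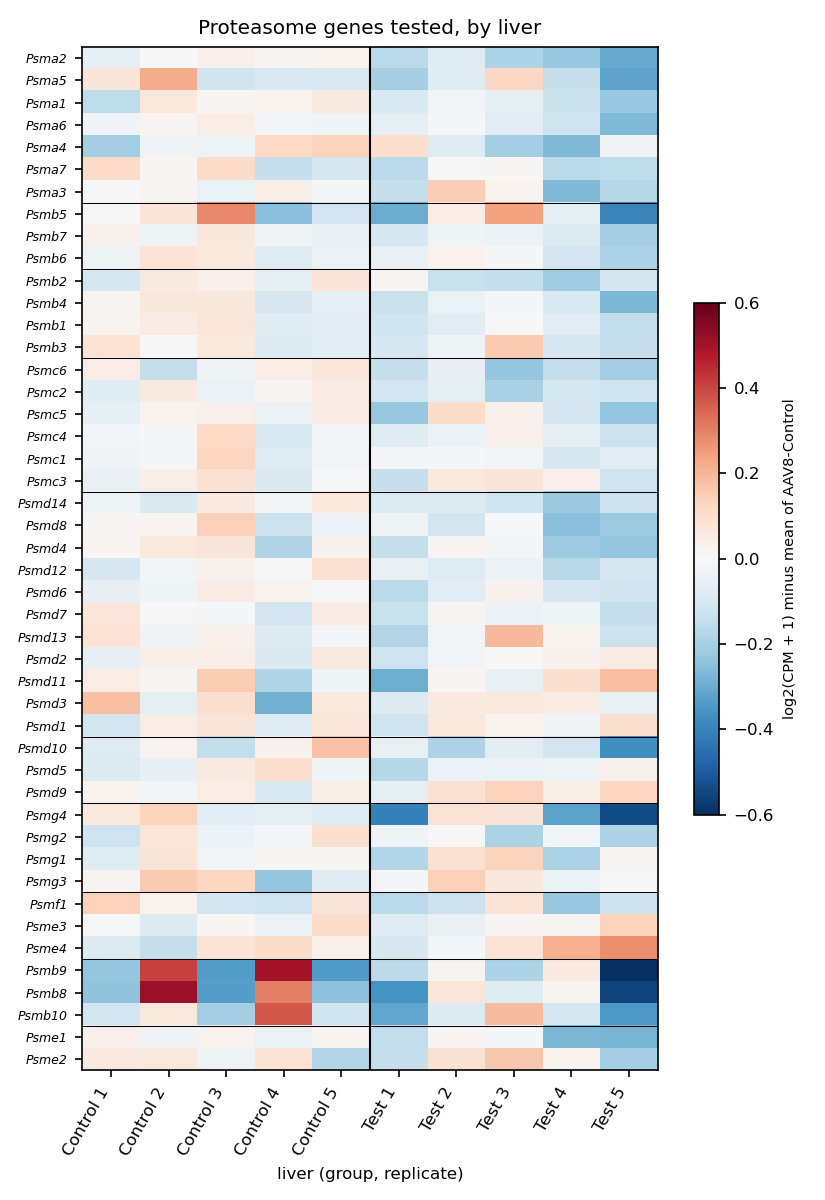
Log2(CPM + 1) of each of the 46 genes tested minus its AAV8-Control mean (colour), with genes in rows by sub-complex and the 10 livers in columns. On this scale, without TMM scaling, AAV8-Test replicates 1, 4 and 5 are blue over most 20S rows. Psmb8 and Psmb9 are red in AAV8-Control replicates 2 and 4, and Psmb10 most in AAV8-Control replicate 4.

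Among the immune catalytic subunits, 2 AAV8-Control livers stood above the others for Psmb8 and Psmb9. Psmb8 (LMP7), on chromosome 17 from 34197721 to 34201454, was at 8.72, 15.4, 8.14, 13.2 and 8.70 CPM in AAV8-Control and at 7.96, 11.1, 9.91, 10.6 and 6.81 CPM in AAV8-Test. Psmb9 (LMP2), on chromosome 17 from 34181987 to 34187764 and 9956 bases from Psmb8, was at 8.72, 14.2, 8.06, 15.2 and 8.02 CPM and at 9.24, 10.6, 9.04, 10.9 and 5.49 CPM. Psmb10 (MECL-1), on chromosome 8 from 105935735 to 105938444, was at 18.6, 21.2, 17.4, 26.4 and 18.5 CPM and at 16.1, 19.1, 23.2, 18.7 and 15.7 CPM. AAV8-Control replicates 2 and 4 were the highest livers for Psmb8 and Psmb9. For Psmb10, AAV8-Control replicate 4 was the highest, and AAV8-Test replicate 3 lay above AAV8-Control replicate 2. The groups overlapped for each gene.

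The log2 fold changes of these 3 genes were -0.18 (standard error 0.18), -0.22 (standard error 0.20) and -0.13 (standard error 0.12), with unadjusted limma p-values of 0.325, 0.306 and 0.311. The 95% confidence interval of Psmb8 ran from -0.56 to 0.20 and that of Psmb9 from -0.66 to 0.22. With AAV8-Control replicates 2 and 4 left out together, a choice made after the data were seen, the log2 fold changes became 0.09, 0.09 and 0.01. Their direction thus rested on those livers. Those livers also had the highest summed level of 15 T and NK cell markers, at 8.04 and 8.06 CPM, against 1.64 to 2.46 CPM in the other AAV8-Control livers and 1.68 to 2.59 CPM in AAV8-Test livers. None of the 15 was at 0 in every liver, none reached a mean of 1 CPM, and their part in the result was not tested. In bulk liver, fewer cells of a type and less RNA per cell cannot be told apart.

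The PA28 subunits did not stand out in those livers. Psme1 (PA28 alpha), on chromosome 14 from 55578123 to 55581529, was at 88.4, 85.2, 88.0, 84.2 and 87.2 CPM in AAV8-Control and at 78.1, 86.9, 86.3, 71.7 and 71.2 CPM in AAV8-Test. On CPM without TMM scaling, its AAV8-Test livers 1, 4 and 5 lay under every AAV8-Control liver, as they did in the mean of the 14 constitutive 20S genes (log2 fold change -0.14, standard error 0.069, unadjusted limma p = 0.0665, exact permutation p = 0.0873). Psme2 (PA28 beta), 5911 bases from Psme1, measured 21.6, 21.7, 20.2, 22.1 and 18.2 CPM in AAV8-Control and 18.7, 22.1, 23.3, 21.1 and 17.9 CPM in AAV8-Test. The ranges of the groups nearly coincided (log2 fold change -0.01, standard error 0.086). With groups centred, Psmb8 correlated with Psmb9 at 0.925, with Psme2 at 0.691 and with Psme1 at 0.144. The mean pairwise correlation was 0.795 among the 3 immune catalytic subunits and 0.204 between them and the 20S genes, again as a description.

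The share of immune over constitutive catalytic mRNA was compared between groups for each site of the core. Per length of transcript, Psmb8 was at 27.2 ± 9.74% of Psmb5 in AAV8-Control and 24.2 ± 2.78% in AAV8-Test (SD, n = 5 each), a log2 difference of -0.08 with a standard error of 0.23. Psmb9 was at 5.55 ± 1.87% and 4.83 ± 1.05% of Psmb6, a log2 difference of -0.15 with a standard error of 0.23. Psmb10 was at 13.7 ± 2.65% and 13.1 ± 1.67% of Psmb7, a log2 difference of -0.04 with a standard error of 0.14. By two-sided exact permutation tests over the 252 assignments, p was 0.722, 0.540 and 0.762, and no ratio differed beyond the spread between livers. The log2 differences were taken on CPM + 1, and the level of Psmb5, the denominator for Psmb8, is uncertain because its transcript shares sequence with other genes, as given below. With mean levels over all livers divided by the unshared windows alone, Psmb8 was at 11.3% of Psmb5, Psmb9 at 5.64% of Psmb6 and Psmb10 at 9.59% of Psmb7, against 25.3%, 5.20% and 13.4% per length, so the share of Psmb8 moved most.

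Across the 10 livers the immune catalytic subunits went with interferon gamma response genes. The list, fixed with earlier results of these data known, held 22 tested genes such as Tap1, Igtp and Cxcl9, none of them a proteasome gene. Pearson's r with the list's mean log2 level was 0.865 for Psmb9 (permutation p = 0.00027, adjusted over the 5 subunits 0.00135), 0.825 for Psmb8 (permutation p = 0.00313, adjusted 0.00782) and 0.790 for Psmb10 (permutation p = 0.00971, adjusted 0.0162). Spearman's rho was 0.733 (permutation p = 0.0202, adjusted 0.0337), 0.891 (permutation p = 0.00115, adjusted 0.00575) and 0.733 (permutation p = 0.0202, adjusted 0.0337). The livers farthest from the list's median were AAV8-Control replicates 2 and 4, and without them r was 0.762 for Psmb9, 0.795 for Psmb8 and 0.405 for Psmb10, so that the relation of Psmb10 rested on those livers. For Psme1 r was 0.257 (permutation p = 0.513) and rho 0.261 (permutation p = 0.471), and for Psme2 r was 0.481 (permutation p = 0.146) and rho 0.576 (permutation p = 0.0895). The permutation p of r for Psme2 fell under 0.05 with TMM scaling and without AAV8-Test replicate 3, as given in the last section. With each group centred on its mean, r was 0.869, 0.823 and 0.772 for Psmb9, Psmb8 and Psmb10, and -0.089 and 0.529 for Psme1 and Psme2. Tap1, a list member, holds 12.5% of the 50-base windows of Psmb9.

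**Figure D3:**
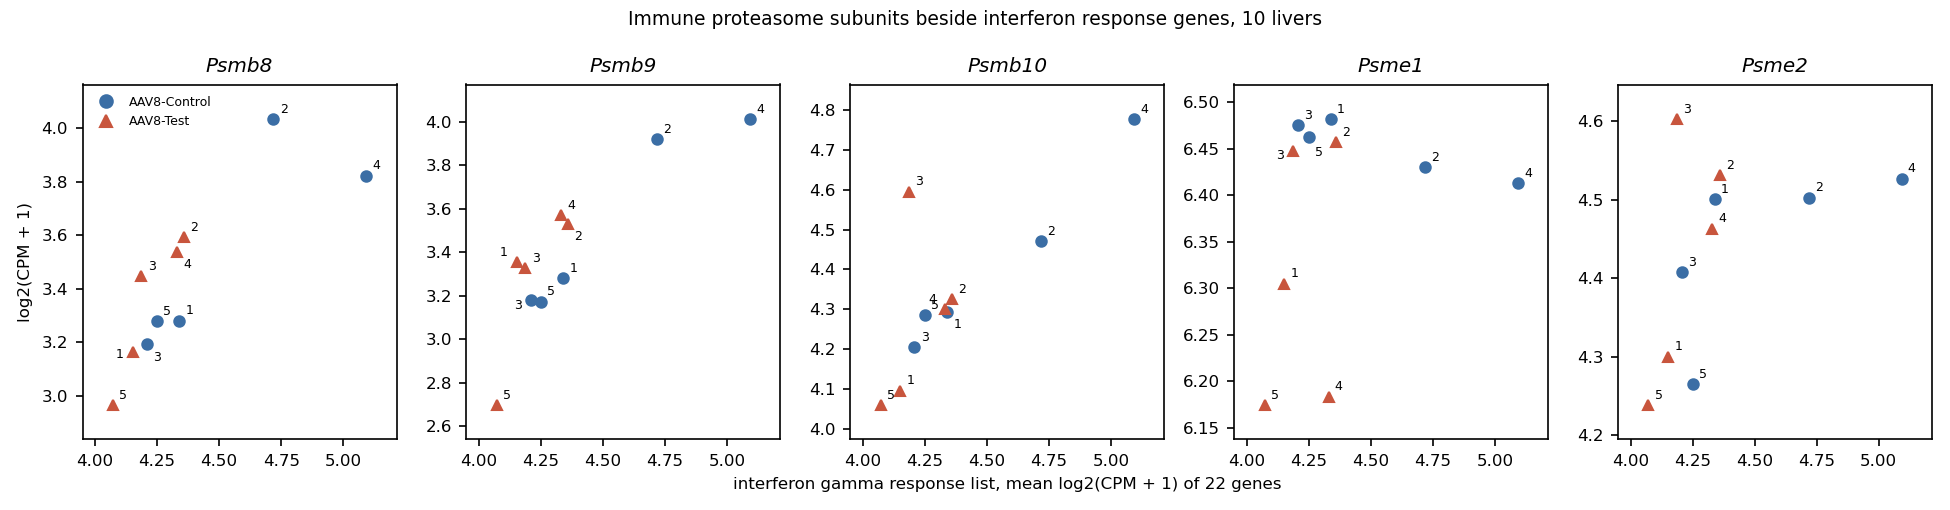
Level of each of the 5 immune subunits, log2(CPM + 1) on the y axis, against the mean log2(CPM + 1) of 22 interferon gamma response genes on the x axis, with 1 point per liver and its replicate number (circles, AAV8-Control, triangles, AAV8-Test, and y axes that differ between panels). AAV8-Control replicates 2 and 4 lie far right, and Psmb8 and Psmb9 increase along the axis (r of 0.825 and 0.865) while r of Psme1 is 0.257.

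The interferon list itself was lower in the mean for 19 of its 22 genes, against 44.1% of all genes tested, and 4 had an unadjusted limma p under 0.05, against 2.97%. Its mean log2 level was 4.72 and 5.09 in AAV8-Control replicates 2 and 4, 4.21 to 4.34 in the other AAV8-Control livers and 4.07 to 4.36 in AAV8-Test livers. Among these, Cxcl9, an interferon-induced chemokine, had a log2 fold change of -1.66, Igtp -0.58 and Tap1 (which pumps proteasome-made peptides into the endoplasmic reticulum) -0.40. The adjusted p of each of these was 0.617. With AAV8-Control replicates 2 and 4 left out together, the log2 fold changes of Cxcl9, Igtp and Tap1 became -0.72, -0.15 and -0.16, and without AAV8-Control replicate 4 alone that of Igtp became -0.30. These are the livers with the highest T and NK cell marker sums, and the part of those cells in the result was not tested.

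Genes that work with or regulate the proteasome were given from lists chosen with earlier results known. Of 27 partner genes tested, from ubiquitin and shuttle factors to associated enzymes, 11 were lower (against 44.1% of all genes tested) and 16 higher in the mean, and 0 passed an adjusted p of 0.05 by limma. Sem1, the smallest subunit of the 19S lid, was the only partner gene with an unadjusted p under 0.05, so 1 of 27 was lower at that p, against 2.97% of all genes tested. It had means of 37.9 ± 1.98 CPM and 32.3 ± 2.63 CPM (SD, n = 5 each, log2 fold change -0.23, unadjusted limma p = 0.00711, adjusted p = 0.617, exact permutation p = 0.0159). Pomp, the chaperone of core maturation, had a log2 fold change of -0.10 (unadjusted limma p = 0.107, exact permutation p = 0.0476). Of 12 regulators of proteasome genes tested, 9 were higher in the mean, against 55.9% of all genes tested, and 2 were higher at an unadjusted p under 0.05, against 4.99%. Stat3 had a log2 fold change of 0.30 (unadjusted limma p = 0.0183, exact permutation p = 0.0238), Foxo4 one of 0.19 (unadjusted limma p = 0.0181, exact permutation p = 0.0317), and Nfe2l1, the factor of the bounce-back response to proteasome inhibition, one of 0.12 (unadjusted limma p = 0.279, exact permutation p = 0.333). The adjusted p of Stat3 and Foxo4 was 0.617. Stat3 rested in part on AAV8-Test replicate 3, the highest liver at 138.5 CPM, without which its log2 fold change was 0.19, and that of Nfe2l1 ran from 0.071 to 0.22 with each liver left out.

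Levels between genes were compared as CPM per kilobase of transcript. The 20S subunits reached 141 for Psmb6, 111 for Psmb7 and 97.9 for Psma7, and the immune catalytic subunits lay at 6.17 for Psmb8, 7.35 for Psmb9 and 14.9 for Psmb10. Psmb5, Psmb3 and Psma5, parts of the same barrel in equal number, lay at 24.4, 28.6 and 5.68. Their transcripts share 57.1%, 55.8% and 55.4% of their 50-base windows with other annotated genes, and Psme2 shares 59.3%, including with Psme2b. Reads in shared windows would not be counted as uniquely aligned, so the levels of these genes are uncertain, and the part of shared sequence in them was not tested. Of the 49 genes, 24 shared no window and 16 shared over 10%. Psma3, at 6.01 per kilobase, shares 22.0% and has a long annotated transcript, and Psma2, at 16.5, shares 3.53%. Psma5, Psma7, Psmd2, Psmd4, Psmd12, Cd74, Clec9a, Zbtb46 and Alb were named after values were seen.

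**Figure D4:**
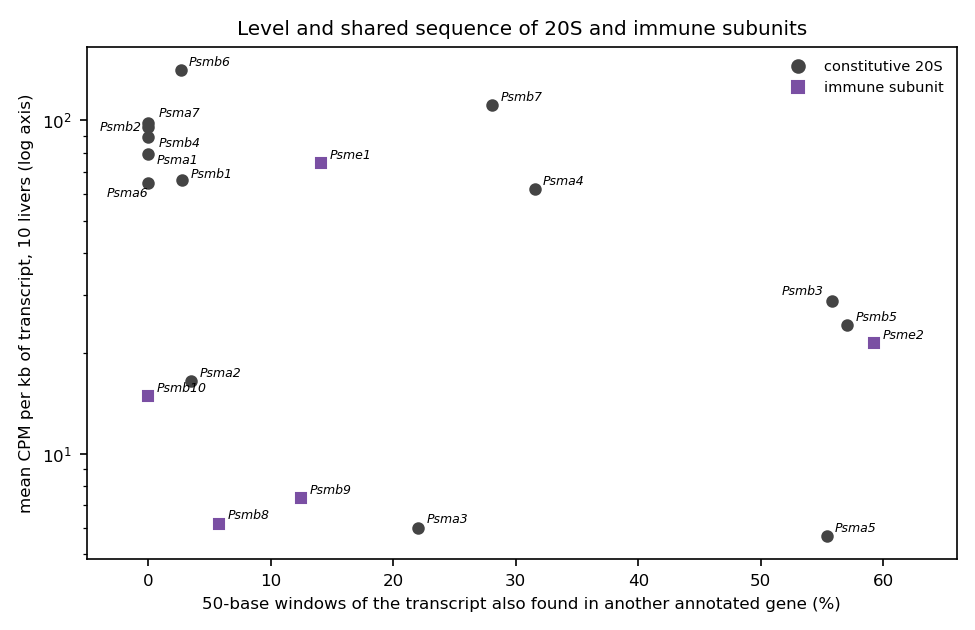
Mean CPM per kilobase of transcript over 10 livers (y axis, log axis) against the percent of 50-base windows of the transcript also found in another annotated gene (x axis), for constitutive 20S genes (circles) and immune subunits (squares). Psmb3, Psmb5, Psma5 and Psme2 lie at the right, with over 50% of their windows shared, and Psmb6 and Psmb7 are the highest genes.

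Total reads on genes were 19499795 to 35498596 per AAV8-Control liver and 21656201 to 26124038 per AAV8-Test liver. Hepatocyte marker genes summed to 110530 to 148360 CPM in AAV8-Control and 120840 to 136810 CPM in AAV8-Test, and 3 of these 11 were higher at an unadjusted p under 0.05 (Tat, Cps1 and Hnf4a), against 4.99% of all genes tested, with 0 past the adjusted threshold. Most of this sum was Alb, at 80000 to 111610 CPM in AAV8-Control and 88327 to 104490 CPM in AAV8-Test, so the sum says little about the other markers. The summed levels of macrophage, endothelial, stellate and cholangiocyte markers overlapped between groups. Of 13 macrophage markers tested, 11 were lower in the mean, against 44.1% of all genes tested, with a median log2 fold change of -0.12 and 0 with an unadjusted p under 0.05. Their sum ran from 219.6 to 452 CPM in AAV8-Control and from 219.4 to 369 CPM in AAV8-Test, and their part in the levels of the proteasome genes was not tested. The 8 dendritic cell markers summed to 50.3 to 153 CPM in AAV8-Control, with AAV8-Control replicate 2 highest and replicate 4 next at 92.6 CPM, and to 44.3 to 63.1 CPM in AAV8-Test. Nearly all of this sum was Cd74, a chaperone of MHC class II that other antigen-presenting cells also make, at 145 and 86.1 CPM in those 2 AAV8-Control livers. Of the other 2 markers tested, Clec9a was highest in AAV8-Control replicates 4 and 2, at 2.15 and 1.73 CPM, and Zbtb46 was lowest in AAV8-Control replicate 4, at 2.77 CPM. None of the 8 B cell or 7 neutrophil markers reached a mean of 1 CPM.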

How the data were processed

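RNA of 10 db/db mouse livers was selected by poly-A and sequenced as single reads of 50 bases with no strand marking. The authors aligned reads to Ensembl release 76 (GRCm38.p2 in the submitters' processing notes) with STAR 2.0.4b and counted uniquely aligned reads with featureCounts 1.4.5. The authors deposited CPM values; how counts became CPM is not given in the sources used here. The table had 15236 lines for 15126 genes, and repeats of a gene were dropped. Whole reads were recovered for 100% of values within 0.01 of a whole number.

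The 11027 genes whose mean reached 1 CPM were tested on log2(CPM + 1) with limma 3.58.1 (trended prior, Benjamini-Hochberg adjustment over all 11027 genes). Fold changes of genes near 1 CPM are understated on this scale. Single values had exact permutation tests over 252 assignments, and correlations had 100000 permutations. edgeR 4.0.16 with TMM scaling and DESeq2 1.42.0 on the recovered reads, another pseudocount (0.1 CPM), no filter, the replicate number as a block and each liver left out were alternatives. The functions were tested on simulated data first. Gene positions and transcript lengths are from GENCODE release M21 (GRCm38), and promoters from RefSeq (GRCm38.p6).

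Genes given full values were the immune subunits, Psmb5, Psmb6 and Psmb7, those with an unadjusted p under 0.05 or groups that did not overlap, the extremes of each sub-complex, and from the lists up to 5 genes with an unadjusted p under 0.05, Nfe2l1 and Pomp. The gene carried by the AAV8-Test vector and some listed genes are not reported here. The proteasome genes and the lists were chosen with earlier results of these data known. The p-values measure the spread between these livers. No libraries of a group looked like 1 library deposited again (lowest chi-square per degree of freedom 17.9).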

Additional observations from a re-analysis of the deposited data

Results flagged for a closer look

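Each proteasome gene tested, each list gene named and each ratio was examined in each group of 5 livers for a liver far from the others. Of these 124 groups, 3 were past Dixon's critical value for the gap to the nearest liver over the group's range, where chance gives about 1 in 20. Psma1, an alpha subunit of the 20S core, was lowest in AAV8-Control replicate 1, at 88.668 CPM, with a gap of 0.777 of the range. Psmd4, the ubiquitin receptor of the 19S cap, was lowest in AAV8-Control replicate 4, at 103.08 CPM, with a gap of 0.728. Hnf4a, a hepatocyte marker, was highest in AAV8-Control replicate 1, at 734.83 CPM, with a gap of 0.784. Both proteasome genes are named here for this gap alone.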

How the results depend on the processing

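None of the 46 proteasome genes passed an adjusted p of 0.05 in any setting run (pseudocount, filter, TMM, edgeR, DESeq2, replicate block, each liver left out, and AAV8-Control replicates 2 and 4 left out together), but DESeq2 gave an adjusted p for 35 of them only (lowest 0.186) and NA for the other 11. Genes with a log2 fold change below 0 were 34 to 43 of the 46 with each liver left out and 43 with TMM, edgeR and DESeq2, where 49.6%, 49.6% and 49.7% of all genes tested were below 0. Their median was -0.10 to -0.06 with each liver left out. Lower genes at an unadjusted p under 0.05 were 4, and 1 to 5 with each liver left out, 1 with the replicate block and 2 without AAV8-Control replicates 2 and 4 together. Over all genes, 2 passed an adjusted p of 0.05, and 17 did by DESeq2, 5 with the replicate block, 1 without AAV8-Control replicates 2 and 4 together, and 1 to 4 with each liver left out.

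Psmd1 turned negative, at -0.012 with TMM, -0.014 with edgeR, -0.015 with DESeq2 and -0.0038 without AAV8-Control replicates 2 and 4. Without both, Psmb8, Psmb9, Psmb10 and Psme2 became 0.092, 0.086, 0.014 and 0.036. With each liver left out, Psmd1 ran from -0.021 to 0.040, Psmc3 from -0.042 to 0.013, Psme2 from -0.057 to 0.034, Psmg3 from -0.026 to 0.071, Psme4 from 0.049 to 0.14, Psmg4 from -0.30 to -0.14, Psmb6 from -0.088 to -0.036, Psma3 from -0.14 to -0.037, Psmb3 from -0.091 to -0.018, Psmd10 from -0.19 to -0.10, Psmd9 from 0.044 to 0.099, Psmb8 from -0.26 to -0.052, Psmb9 from -0.30 to -0.067 and Psmb10 from -0.21 to -0.038. The log2 ratios ran from -0.24 to 0.054 for Psmb8 to Psmb5, from -0.25 to -0.0059 for Psmb9 to Psmb6 and from -0.11 to 0.055 for Psmb10 to Psmb7. The correlation with the interferon list ran from 0.805 to 0.924 for Psmb8, 0.837 to 0.901 for Psmb9, 0.533 to 0.979 for Psmb10, 0.064 to 0.326 for Psme1 and 0.375 to 0.673 for Psme2. Without AAV8-Control replicate 4 Psmb10's r of 0.533 had a permutation p of 0.147, and Psme2 reached 0.636 (permutation p = 0.0378) with TMM and 0.673 (permutation p = 0.0393) without AAV8-Test replicate 3.

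Deviations of same-numbered livers correlated at 0.075 to 0.314, and 7 of 10 livers correlated best with their own number. As 1 of the 5 correlations was under 0.1 and no label ties the numbers to a litter or day, the numbers were not taken to pair the livers. The paired exact tests of the ratios, which cannot reach 0.05 with 5 pairs, gave p of 0.625, 0.250 and 0.750, and the block was not run on the correlations. The cause of these changes was not tested. With 5 livers a group, the median standard error of the members was 0.070 on the log2 scale, and 0.18 for the immune catalytic subunits. Psmb8, near 10 CPM, rested on 165 to 361 reads per liver, and counting error is part of its spread.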
